A study of Xenopus laevis with 14 samples.

Results

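Ion exchangers, cotransporters and the pumps that energise them were followed in brains of stage 47 *Xenopus laevis* tadpoles. The members were chosen by gene symbol, without regard to the L or S suffix that marks the homeologous copies of this allotetraploid frog. They comprised the solute carrier families *slc4*, *slc8*, *slc9*, *slc12*, *slc24* and *slc26*, the sodium pump subunits *atp1a* and *atp1b*, and the calcium pumps *atp2a*, *atp2b* and *atp2c*. This gave 126 of the 26807 genes in the count table, from 73 symbols, and 106 of the 126 belonged to pairs with both copies present. The families held 19 *slc4*, 8 *slc8*, 16 *slc9*, 14 *slc12*, 10 *slc24*, 29 *slc26*, 13 *atp1* and 17 *atp2* genes. Both *slc4a1ap* copies match by symbol, although they encode an adaptor protein rather than a transporter.

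RNA was sequenced from 5 control, 4 *ap3b2* CRISPant and 5 *eef1a2* CRISPant libraries, each made from 6 whole brains pooled at NF stage 47. Embryos in all 3 groups came from 2 females, shared a wild-type background and were injected with Cas9, complexed with a scrambled guide in controls or with a guide against *ap3b2* or *eef1a2*. CRISPants are injected animals of the first generation and are mosaic, so every brain mixes edited and unedited cells. Loss of *AP3B2* and variants in *EEF1A2* underlie developmental and epileptic encephalopathies in people. The series set out to find genes that differ between control brains and either model. The comparisons of *ap3b2* and of *eef1a2* CRISPants with controls share the same 5 control libraries and are therefore not independent of each other.

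Each library held 36563581 to 46745977 pairs assigned to genes. Levels below are CPM, counts scaled to a common library size. Before further scaling, 1 CPM stood for 36.6 to 46.7 counts. All levels but the summed marker levels were adjusted by TMM, a method that corrects for differences in composition. Levels are not per gene length and are compared between samples. Between genes they were set side by side only as ratios compared between groups and to choose which members to name. The levels of the targeted genes overlapped with controls in the edited *eef1a2* group and in the *ap3b2* copy to which the guides were designed: *eef1a2.S* ranged from 372.0 to 443.7 CPM in controls and from 368.7 to 438.2 CPM in *eef1a2* CRISPants, and *ap3b2.S* from 70.2 to 74.8 CPM in controls and from 61.9 to 80.2 CPM in *ap3b2* CRISPants. *eef1a2.L* also overlapped, at 137.5 to 158.1 CPM in controls and 123.4 to 172.2 CPM in *eef1a2* CRISPants. *ap3b2.L* was lower without overlap in both CRISPant groups, at 117.0 to 131.2 CPM in controls, 64.4 to 113.9 CPM in *ap3b2* and 54.8 to 107.1 CPM in *eef1a2* CRISPants. The level of a transcript does not report the editing itself. The summed level of 6 neuronal marker genes (12 rows) lay between 5301 and 6349 CPM in all libraries, with medians of 5476 CPM in controls, 5748 CPM in *ap3b2* and 5607 CPM in *eef1a2* CRISPants. Summed markers of oligodendrocytes had medians of 613.4, 434.1 and 457.0 CPM in the same order and those of endothelium 97.5, 69.3 and 66.1 CPM, and for both lists the range of each CRISPant group overlapped that of the controls. The part of these markers in the changes below was not tested. In RNA from whole brains, fewer cells of a type and less RNA per cell cannot be told apart.

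Neurons and glia hold steep gradients of sodium, potassium, calcium, chloride and protons. The sodium-potassium ATPase builds the sodium and potassium gradients, and secondary transporters spend them: cation-chloride cotransporters set intracellular chloride, sodium-calcium exchangers remove calcium after activity, and sodium-proton exchangers and bicarbonate transporters regulate pH. In the cation-chloride family, NKCC1 (*slc12a2*) brings chloride into the cell and KCC2 (*slc12a5*) takes it out of neurons, and their balance sets whether the GABA-A receptor current is inward or outward. Calcium pumps work beside the exchangers, at the plasma membrane (PMCA), at the endoplasmic reticulum (SERCA) and at the Golgi (SPCA).

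Of the 126 members, 87 passed the filter on low counts in each comparison. Genes were called at an edgeR false discovery rate below 0.05 with a fold change above 2. In *ap3b2* CRISPants 12 of the 87 members were called lower and 0 higher, against 5.11% of all 20800 genes tested called lower and 0.0769% called higher. In *eef1a2* CRISPants 12 of the 87 were also called lower and 0 higher, against 5.24% and 0.0870% of 20682 genes. The 12 were the same genes in both comparisons, which share their controls: *slc12a2.S*, *slc8a1.L*, *slc8a1.S*, *slc8a2.L*, *slc8a3.S*, *slc24a2.L*, *slc24a3.L*, *slc24a3.S*, *atp2a3.L*, *atp2a3.S*, *atp2c1.L* and *slc4a8.L*. By the false discovery rate alone, 37 members fell and 6 rose in *ap3b2* CRISPants, where 22.8% of all genes fell and 20.0% rose. In *eef1a2* CRISPants 33 fell and 5 rose, against 21.4% and 18.8% of all genes. Without overlap between groups, 28 members were lower and 3 higher in *ap3b2* CRISPants (14.4% and 12% of all genes), and 22 were lower and 1 higher in *eef1a2* CRISPants (10% and 9.09%). An unadjusted p below 0.05 was reached by 48 members in *ap3b2* and 43 in *eef1a2* CRISPants, against 51.7% and 50% of all genes. By the false discovery rate, 32 fell in both comparisons and 4 rose in both. The other 42 tested members, including the *slc4a1ap* copies, passed the test in neither direction in either comparison. The median log2 fold change over the 87 members was -0.20 in *ap3b2* and -0.18 in *eef1a2* CRISPants, and over all genes tested it was 0.03 in each.

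**Figure D1:**
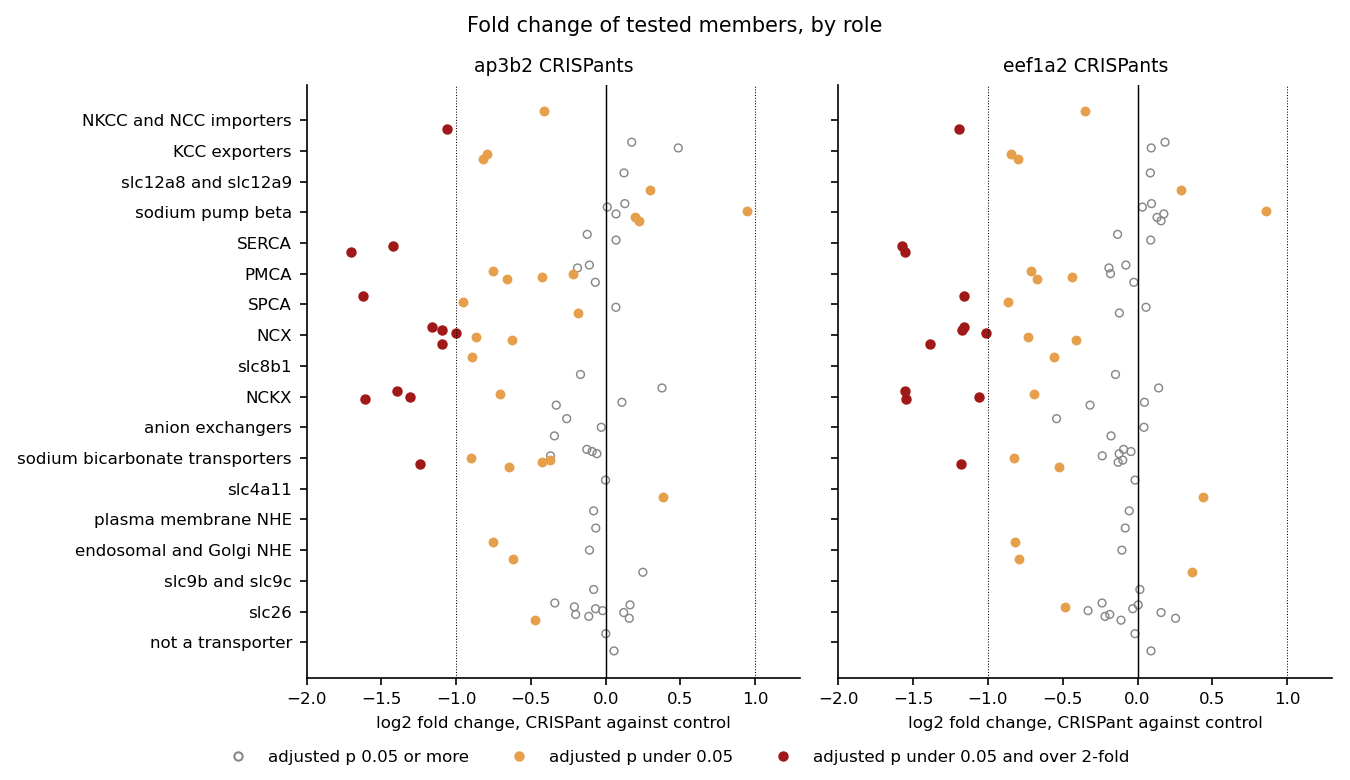
Each circle is a tested member (77 of the 87 are drawn), placed by its log2 fold change in *ap3b2* (left) or *eef1a2* CRISPants (right) against controls (x axis) and by its role (y axis). Red circles passed a false discovery rate of 0.05 with a fold change above 2 (12 in each panel, all lower), orange circles passed the false discovery rate alone, and open circles did not pass. Dotted lines mark a fold change of 2. NCX and NCKX are the sodium-calcium exchangers of families *slc8* and *slc24*, and NHE are the sodium-proton exchangers of family *slc9*.

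The genes called lower in these brains span long stretches of the genome. The distance from gene start to gene end had a median of 58207 bases over the genes called lower in *ap3b2* CRISPants, 24109 bases over all genes tested and 49055 bases over 73 tested members, of which 66 had a span of their own in the position table and 7 were given that of their homeolog. Of the 12 called members 9 had a span (75.0%), 8 their own and *slc8a1.L* that of *slc8a1.S*, and *slc24a2.L*, *slc24a3.L* and *slc24a3.S* had none and could not be corrected, so a check of the 12 as a set is void. Of the 9, after the trend of fold change with span was removed, 5 were still called lower in *ap3b2* and 6 in *eef1a2* CRISPants. They include *slc8a3.S*, whose listed span of 2832 bases is far below that of its homeolog. The calls lost in both comparisons were *slc8a1.L*, *slc8a1.S* and *slc8a2.L*, and *slc12a2.S* was lost in *ap3b2* CRISPants as well. Calls over all genes fell too when the span trend was removed. In *ap3b2* CRISPants 839 of 20800 genes were then called lower, against 1063 before. In *eef1a2* CRISPants 946 of 20682 were called lower, against 1083 before. Single libraries also mattered: 7 members were called in *eef1a2* CRISPants without their replicate 3, the library with the lowest exchanger levels, and 8 were called in *ap3b2* CRISPants without their replicate 1. Over all genes these fits called 706 of 20809 and 724 of 20909 lower, against 1083 of 20682 and 1063 of 20800 with every library. With replicates 1 to 3 alone 23 members were called lower in *ap3b2* and 5 in *eef1a2* CRISPants, and with replicates 4 and 5 alone, a comparison added after the data had been seen, 7 were called lower in *eef1a2* CRISPants. Over all genes, 2195 of 21083 and 406 of 21105 were called lower with replicates 1 to 3, and 811 of 21483 with replicates 4 and 5. The counts over all genes thus moved in the same direction as those of the members. Replicates 4 and 5 held 1 *ap3b2* library, too few for a value.

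The chloride importer and the chloride exporter both fell. *slc12a2.L* (chromosome 1L, 182054142 to 182117438) was measured at 21.5, 19.96, 22.2, 15.3 and 20.03 CPM in control replicates 1 to 5, 14.3, 13.8, 14.3 and 17.2 CPM in *ap3b2* CRISPant replicates 1 to 4 and 16.9, 18.6, 13.2, 16.6 and 12.9 CPM in *eef1a2* CRISPant replicates 1 to 5. Control replicate 4 was the lowest control and lay below *ap3b2* replicate 4, so the groups overlapped. The change was -0.41 ± 0.12 in *ap3b2* CRISPants (log2 fold change ± SE, edgeR adjusted p = 0.015) and -0.35 ± 0.13 in *eef1a2* CRISPants (adjusted p = 0.047). *slc12a2.S* (chromosome 1S, 155751819 to 155810975) was measured at 20.02, 19.3, 18.97, 14.5 and 19.9 CPM in control replicates 1 to 5, 6.12, 9.66, 8.41 and 11.5 CPM in *ap3b2* CRISPant replicates 1 to 4 and 8.32, 12.7, 4.93, 7.09 and 7.75 CPM in *eef1a2* CRISPant replicates 1 to 5. Every CRISPant library lay below the lowest control, which was again replicate 4. This copy fell by more than 2-fold, changing by -1.06 ± 0.17 in *ap3b2* CRISPants (log2 fold change ± SE, edgeR adjusted p = 0.0029) and -1.19 ± 0.21 in *eef1a2* CRISPants (adjusted p = 0.0078). In *ap3b2* CRISPants its 2-fold call, but not its adjusted p below 0.05, was lost without their replicate 1 (-0.91) and with the span trend removed. In *eef1a2* CRISPants its call was lost with replicates 1 to 3 alone (edgeR adjusted p = 0.0502).

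*slc12a5*, the neuronal exporter, fell in both copies but by less than 2-fold. *slc12a5.L* (chromosome 9_10L, 35641539 to 35693170) was measured at 143.6, 145.96, 149.04, 94.3 and 130.3 CPM in control replicates 1 to 5, 70.02, 75.6, 71.8 and 90.3 CPM in *ap3b2* CRISPant replicates 1 to 4 and 76.4, 112.7, 56.3, 62.4 and 64.9 CPM in *eef1a2* CRISPant replicates 1 to 5. The *ap3b2* libraries all lay below the controls, whereas *eef1a2* replicate 2 lay above control replicate 4. The change was -0.79 ± 0.13 in *ap3b2* CRISPants (log2 fold change ± SE, edgeR adjusted p = 0.0029) and -0.84 ± 0.19 in *eef1a2* CRISPants (adjusted p = 0.0088). *slc12a5.S* was measured at 139.2, 146.5, 149.2, 116.4 and 144.8 CPM in control replicates 1 to 5, 63.5, 75.7, 69.1 and 107.8 CPM in *ap3b2* CRISPant replicates 1 to 4 and 71.4, 100.3, 54.3, 90.1 and 87.3 CPM in *eef1a2* CRISPant replicates 1 to 5. No CRISPant library reached the lowest control. The change was -0.82 ± 0.14 in *ap3b2* CRISPants (log2 fold change ± SE, edgeR adjusted p = 0.003) and -0.80 ± 0.15 in *eef1a2* CRISPants (adjusted p = 0.0078). With replicates 1 to 3 alone, both *slc12a5* copies were called at more than 2-fold in *ap3b2* CRISPants and neither was called in *eef1a2* CRISPants. Over all genes that *ap3b2* fit called 2195 of 21083 lower, against 1063 of 20800 with every library.

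**Figure D2:**
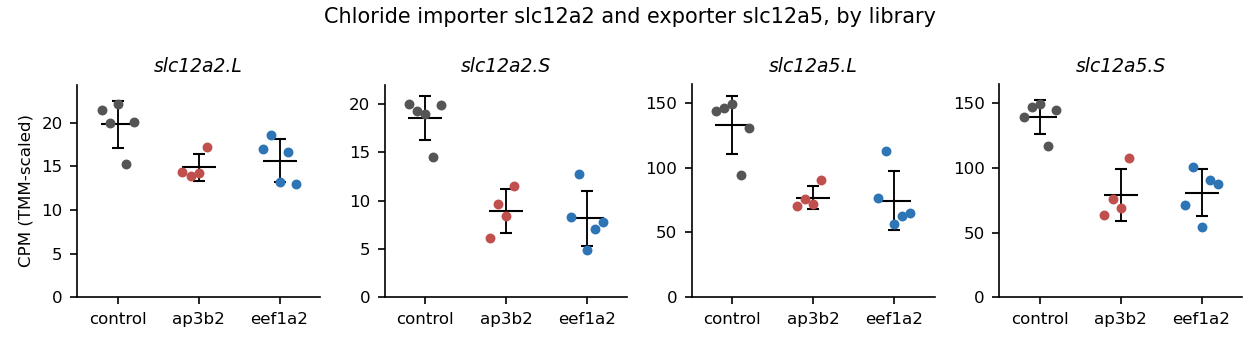
Levels of the chloride importer *slc12a2* and the exporter *slc12a5* in CPM (y axis, from 0) in control, *ap3b2* CRISPant and *eef1a2* CRISPant libraries (x axis). Points are libraries in replicate order from left to right, the horizontal bar is the mean and the whiskers are the SD. The controls of *slc12a2.S* sit between 14.5 and 20.0 CPM and all CRISPant libraries below 14.5 CPM.

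Since the rule names these genes for the chloride set point, their balance was compared within each library as the log2 ratio of the summed *slc12a5* copies to the summed *slc12a2* copies. The ratio is not per gene length, so only its change between groups can be read. It was 2.77, 2.90, 2.86, 2.82 and 2.78 in control replicates 1 to 5, 2.71, 2.69, 2.64 and 2.79 in *ap3b2* CRISPant replicates 1 to 4, and 2.55, 2.77, 2.61, 2.69 and 2.88 in *eef1a2* CRISPant replicates 1 to 5. The groups overlapped. The mean was 2.83 ± 0.05 in controls (SD, n = 5), 2.70 ± 0.06 in *ap3b2* (n = 4) and 2.70 ± 0.13 in *eef1a2* CRISPants (n = 5). The difference from controls was -0.12 in *ap3b2* CRISPants (exact permutation test, 2-sided, p = 0.048) and -0.13 in *eef1a2* CRISPants (exact p = 0.087), and each had an adjusted p of 0.13 over the 3 comparisons made. The smallest p that the test can give is 0.016 for 5 against 4 libraries and 0.0079 for 5 against 5. The CRISPant groups differed by 0.006 from each other (exact permutation p = 0.90). The direction depended on the copy. With the L copies alone the difference was -0.37 in *ap3b2* and -0.52 in *eef1a2* CRISPants (exact permutation tests, adjusted p = 0.024 in each). With the S copies alone it was 0.24 (exact permutation test, adjusted p = 0.071) and 0.43 (adjusted p = 0.048), since *slc12a2.S* had fallen further than *slc12a2.L*. These p were adjusted over the 3 comparisons within each choice of copies, not over the summed, L and S versions together.

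*slc12a4.L* and *slc12a4.S*, copies of a potassium-chloride exporter found outside neurons as well, did not pass the test, with log2 fold changes of 0.17 and 0.18 for the L and 0.49 and 0.09 for the S copy in *ap3b2* and *eef1a2* CRISPants. *slc12a9.S*, an orphan member of the family, stood at 16.9 ± 1.55 CPM in controls (SD, n = 5), 20.9 ± 1.78 CPM in *ap3b2* CRISPants (SD, n = 4) and 20.8 ± 2.78 CPM in *eef1a2* CRISPants (SD, n = 5) and rose by 0.30 ± 0.09 in *ap3b2* CRISPants (log2 fold change ± SE, edgeR adjusted p = 0.024) and 0.29 ± 0.10 in *eef1a2* CRISPants (adjusted p = 0.039). Its groups overlapped, and *slc12a9.L* did not pass (0.12 and 0.09). The copies of *slc12a1* and *slc12a3*, renal cotransporters in mammals, and of *slc12a3l* did not pass the filter.

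The sodium pump is built of an alpha subunit, which binds the ions and splits ATP, and a beta subunit, which carries it to the membrane. Of 6 tested beta genes 0 fell, 3 rose in *ap3b2* and 1 rose in *eef1a2* CRISPants. Over all genes tested 22.8% fell and 20.0% rose in *ap3b2* CRISPants, and 21.4% fell and 18.8% rose in *eef1a2* CRISPants. With 6 genes these counts are not read as a trait of the beta subunits. *atp1b2.L*, the beta isoform of glia in mammals, had the largest rise of the 87 tested members: it was measured at 1.83, 2.02, 1.83, 2.00 and 2.29 CPM in control replicates 1 to 5, 3.65, 3.14, 3.91 and 4.72 CPM in *ap3b2* CRISPant replicates 1 to 4 and 2.96, 3.86, 4.29, 3.39 and 3.75 CPM in *eef1a2* CRISPant replicates 1 to 5. Every CRISPant library lay above every control. The change was 0.95 ± 0.15 in *ap3b2* CRISPants (log2 fold change ± SE, edgeR adjusted p = 0.0029) and 0.86 ± 0.13 in *eef1a2* CRISPants (adjusted p = 0.0078), just under 2-fold, and it passed 2-fold in *ap3b2* CRISPants when control replicate 5 or *ap3b2* replicate 2 was left out. Its homeolog *atp1b2.S* did not pass (0.07 and 0.18). *atp1b3.S* rose in *ap3b2* CRISPants by 0.22 ± 0.07 (log2 fold change ± SE, edgeR adjusted p = 0.025), from 650.8 to 754.5 CPM to 754.6 to 872.996 CPM, with 0.16 ± 0.07 in *eef1a2* CRISPants (adjusted p = 0.079). *atp1b3.L* rose by 0.19 ± 0.07 (log2 fold change ± SE, edgeR adjusted p = 0.041) in *ap3b2* CRISPants and did not pass in *eef1a2* CRISPants (0.13 ± 0.07). *atp1b1.L* and *atp1b1.S* did not pass, with log2 fold changes of 0.13 and 0.09 and 0.01 and 0.03.

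**Figure D3:**
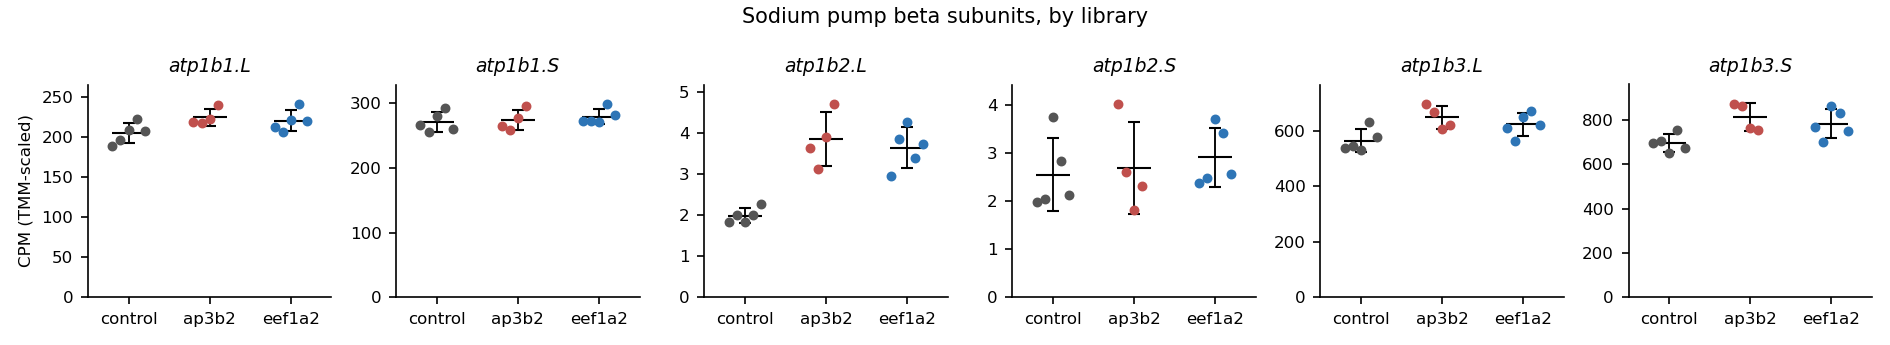
Levels of sodium pump beta subunit genes in CPM (y axis, from 0) by library for the 3 groups (x axis), with the mean (bar) and SD (whiskers). *atp1b2.L* is higher in all CRISPant libraries, at 3.14 to 4.72 CPM and 2.96 to 4.29 CPM, than in all controls, at 1.83 to 2.29 CPM.

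The plasma membrane sodium-calcium exchangers of family *slc8* (NCX) fell in every gene tested. They use the inward sodium gradient to expel calcium. All 6 fell in both comparisons and 4 of the 6 were called at more than 2-fold, with a median log2 fold change of -1.05 in *ap3b2* and -1.09 in *eef1a2* CRISPants. Over all genes tested, 22.8% fell and 5.11% were called lower in *ap3b2* CRISPants, against 21.4% and 5.24% in *eef1a2* CRISPants. The calls of *slc8a1.L*, *slc8a1.S* and *slc8a2.L*, but not their adjusted p below 0.05, were lost in both comparisons when the span trend was removed. *slc8a1.S* (chromosome 5S, 32535596 to 32832604) was measured at 30.7, 30.4, 35.4, 23.9 and 28.5 CPM in control replicates 1 to 5, 9.53, 13.5, 12.36 and 20.6 CPM in *ap3b2* CRISPant replicates 1 to 4 and 12.6, 19.8, 8.03, 14.5 and 11.5 CPM in *eef1a2* CRISPant replicates 1 to 5. The groups did not overlap. The change was -1.10 ± 0.19 in *ap3b2* CRISPants (log2 fold change ± SE, edgeR adjusted p = 0.003) and -1.18 ± 0.20 in *eef1a2* CRISPants (adjusted p = 0.0078). *slc8a1.L* was close to it, at -1.16 and -1.16 (adjusted p = 0.0032 and 0.008). The 2-fold call was lost for *slc8a1.S* without *ap3b2* replicate 1 and for *slc8a1.L* without *eef1a2* replicate 3.

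*slc8a2.L* (chromosome 8L, 71231262 to 71303909) was measured at 39.8, 40.5, 42.6, 30.8 and 35.9 CPM in control replicates 1 to 5, 14.8, 15.97, 17.4 and 27.7 CPM in *ap3b2* CRISPant replicates 1 to 4 and 16.7, 28.2, 9.88, 22.05 and 17.9 CPM in *eef1a2* CRISPant replicates 1 to 5. It too separated the controls from all CRISPant libraries, with *ap3b2* replicate 4 and *eef1a2* replicate 2 nearest to control replicate 4. The change was -1.004 ± 0.17 in *ap3b2* CRISPants (log2 fold change ± SE, edgeR adjusted p = 0.003) and -1.01 ± 0.22 in *eef1a2* CRISPants (adjusted p = 0.0087), at the edge of the 2-fold limit, so that its call, but not its adjusted p below 0.05, was lost when any of control replicates 1 to 3, *ap3b2* replicates 1 to 3 or *eef1a2* replicates 1, 3 and 5 was left out. *slc8a2.S* (chromosome 8S, 85575970 to 85651122) stood at 65.03 ± 7.61 CPM in controls (SD, n = 5), 35.9 ± 4.93 CPM in *ap3b2* CRISPants (SD, n = 4) and 39.4 ± 9.62 CPM in *eef1a2* CRISPants (SD, n = 5), a change of -0.86 and -0.73 (adjusted p = 0.0029 and 0.008).

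*slc8a3.S* (chromosome 8S, 4081616 to 4084447, a short gene model) was measured at 4.84, 5.70, 6.11, 4.02 and 5.07 CPM in control replicates 1 to 5, 1.58, 2.32, 2.097 and 3.68 CPM in *ap3b2* CRISPant replicates 1 to 4 and 1.97, 3.43, 0.821, 2.18 and 1.503 CPM in *eef1a2* CRISPant replicates 1 to 5. The groups did not overlap. The change was -1.09 ± 0.23 in *ap3b2* CRISPants (log2 fold change ± SE, edgeR adjusted p = 0.0043) and -1.39 ± 0.29 in *eef1a2* CRISPants (adjusted p = 0.0083), and the 2-fold call was lost in *ap3b2* CRISPants without their replicate 1. *slc8a3.L* (chromosome 8L, 99304898 to 99476998) fell less, from 14.96 to 18.4 CPM in controls to 10.2 to 12.36 and 10.4 to 14.6 CPM in *ap3b2* and *eef1a2* CRISPants, with log2 fold changes of -0.62 and -0.41. The mitochondrial exchanger *slc8b1.L* fell, changing by -0.90 ± 0.21 in *ap3b2* CRISPants (log2 fold change ± SE, edgeR adjusted p = 0.0076) and -0.56 ± 0.19 in *eef1a2* CRISPants (adjusted p = 0.035), while *slc8b1.S* did not pass (-0.17 and -0.15).

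The potassium-dependent sodium-calcium exchangers of family *slc24* (NCKX) fell in part. They couple calcium export to both the sodium and the potassium gradient, and *slc24a2* and *slc24a3* are among the forms found in brain in mammals. *slc24a2.L* was measured at 20.7, 24.4, 24.002, 18.6 and 22.9 CPM in control replicates 1 to 5, 4.72, 7.61, 6.99 and 14.4 CPM in *ap3b2* CRISPant replicates 1 to 4 and 6.05, 11.9, 2.08, 11.1 and 6.70 CPM in *eef1a2* CRISPant replicates 1 to 5. Controls and CRISPants did not overlap. It fell, changing by -1.39 ± 0.25 in *ap3b2* CRISPants (log2 fold change ± SE, edgeR adjusted p = 0.0031) and -1.56 ± 0.34 in *eef1a2* CRISPants (adjusted p = 0.0089). *slc24a2.S* fell, changing by -0.71 and -0.69 (adjusted p = 0.0063 and 0.01), also without overlap.

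*slc24a3.S* was measured at 10.5, 8.40, 12.8, 5.71 and 7.73 CPM in control replicates 1 to 5, 2.498, 2.98, 1.82 and 4.60 CPM in *ap3b2* CRISPant replicates 1 to 4 and 2.56, 6.43, 1.77, 2.91 and 1.88 CPM in *eef1a2* CRISPant replicates 1 to 5. Controls were themselves spread, with replicates 4 and 5 lowest, and *eef1a2* replicate 2 lay above control replicate 4. The change was -1.61 ± 0.28 in *ap3b2* CRISPants (log2 fold change ± SE, edgeR adjusted p = 0.003) and -1.55 ± 0.35 in *eef1a2* CRISPants (adjusted p = 0.0092). *slc24a3.L* was measured at 9.66, 7.99, 9.91, 3.81 and 4.27 CPM in control replicates 1 to 5, 2.98, 2.66, 2.74 and 3.18 CPM in *ap3b2* CRISPant replicates 1 to 4 and 3.33, 6.14, 2.00, 2.71 and 3.05 CPM in *eef1a2* CRISPant replicates 1 to 5. The *ap3b2* libraries kept within a narrow range below all controls, and *eef1a2* replicate 2 again lay among the controls. It fell, changing by -1.31 ± 0.29 in *ap3b2* CRISPants (log2 fold change ± SE, edgeR adjusted p = 0.0054) and -1.06 ± 0.34 in *eef1a2* CRISPants (adjusted p = 0.03). In *eef1a2* CRISPants its adjusted p rose above 0.05 without control replicate 1, 2 or 3 and without *eef1a2* replicate 1, 3, 4 or 5, with log2 fold changes of -1.36 to -0.90 over the left-out libraries. *slc24a4.L*, *slc24a4.S* and *slc24a1.L* did not pass, with log2 fold changes of 0.11 and 0.05, -0.33 and -0.32 and 0.38 and 0.14. Across the family 4 of 7 tested genes fell in each comparison, against 22.8% of all genes in *ap3b2* and 21.4% in *eef1a2* CRISPants.

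**Figure D4:**
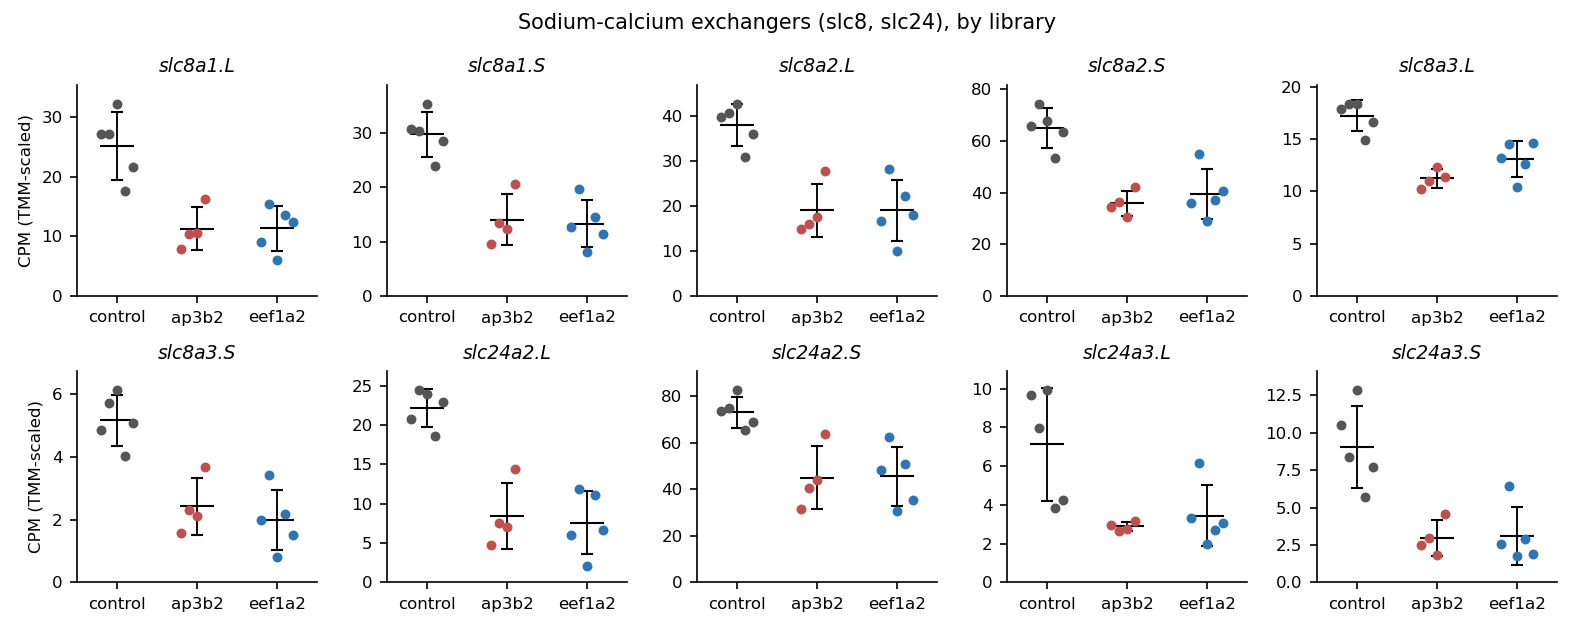
Levels of NCX (*slc8a1* to *slc8a3*) and NCKX (*slc24a2*, *slc24a3*) genes in CPM (y axis, from 0) by library for the 3 groups (x axis), with the mean (bar) and SD (whiskers). All 10 are lower in CRISPants on average. The highest *ap3b2* point is usually replicate 4 and the highest *eef1a2* point replicate 2, and *slc8a2.S*, *slc24a3.L* and *slc24a3.S* overlap between controls and *eef1a2* CRISPants.

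Of the SERCA genes, *atp2a3* fell in both copies and *atp2a2* passed in neither. *atp2a3.L* (chromosome 2L, 105155434 to 105239811) was measured at 15.6, 15.3, 15.2, 11.2 and 14.6 CPM in control replicates 1 to 5, 3.72, 3.67, 5.81 and 8.33 CPM in *ap3b2* CRISPant replicates 1 to 4 and 4.48, 8.07, 2.28, 6.18 and 3.32 CPM in *eef1a2* CRISPant replicates 1 to 5. Every CRISPant library was below the lowest control, replicate 4. The change was -1.42 ± 0.23 in *ap3b2* CRISPants (log2 fold change ± SE, edgeR adjusted p = 0.0029) and -1.57 ± 0.28 in *eef1a2* CRISPants (adjusted p = 0.0078). *atp2a3.S* (chromosome 2S, 92905818 to 93002306) was at 5.61 ± 1.59 CPM in controls (SD, n = 5), 1.72 ± 0.641 CPM in *ap3b2* CRISPants (SD, n = 4) and 1.92 ± 0.91 CPM in *eef1a2* CRISPants (SD, n = 5) and fell, changing by -1.70 and -1.55 (adjusted p = 0.003 and 0.0078). For this copy *eef1a2* replicate 2, at 3.38 CPM, lay next to control replicate 4, at 3.41 CPM. *atp2a2*, the form found in nearly all cells, did not pass in either copy, with log2 fold changes of -0.12 and -0.13 for *atp2a2.L* and 0.07 and 0.09 for *atp2a2.S*. SERCA3, encoded by *atp2a3*, is known in mammals from blood cells, endothelium and Purkinje neurons.

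Among the plasma membrane pumps 4 of 7 fell in *ap3b2* and 3 of 7 in *eef1a2* CRISPants, all by less than 2-fold. Among all genes tested 22.8% and 21.4% fell in the same order. *atp2b2* and *atp2b3* are the neuronal forms. *atp2b2.L* fell, standing at 111.2 ± 5.44 CPM in controls (SD, n = 5), 66.2 ± 20.9 CPM in *ap3b2* CRISPants (SD, n = 4) and 68.2 ± 17.6 CPM in *eef1a2* CRISPants (SD, n = 5), changing by -0.76 and -0.72 on the log2 scale (adjusted p = 0.0047 and 0.0084). *atp2b2.S* fell less, changing by -0.22 ± 0.07 (log2 fold change ± SE, edgeR adjusted p = 0.025) in *ap3b2* CRISPants, with -0.18 ± 0.07 (adjusted p = 0.067) in *eef1a2* CRISPants. *atp2b3.L* fell, changing by -0.42 and -0.44 and *atp2b3.S* by -0.66 and -0.67 (edgeR adjusted p between 0.003 and 0.013). The widespread forms did not pass the test: log2 fold changes were -0.11 and -0.08 for *atp2b1.L*, -0.19 and -0.19 for *atp2b1.S* and -0.07 and -0.02 for *atp2b4.S*. The *atp2b2* and *atp2b3* copies were chosen after their values were seen.

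The Golgi calcium and manganese pump *atp2c1* fell in both copies. *atp2c1.L* was measured at 12.2, 10.5, 10.97, 10.07 and 13.5 CPM in control replicates 1 to 5, 2.32, 3.19, 2.96 and 6.43 CPM in *ap3b2* CRISPant replicates 1 to 4 and 3.33, 7.69, 1.64, 5.80 and 7.25 CPM in *eef1a2* CRISPant replicates 1 to 5. The highest CRISPant library, *eef1a2* replicate 2, lay below the lowest control. The change was -1.62 ± 0.25 in *ap3b2* CRISPants (log2 fold change ± SE, edgeR adjusted p = 0.0029) and -1.16 ± 0.33 in *eef1a2* CRISPants (adjusted p = 0.017). The difference between the CRISPant groups, -0.47 ± 0.44, did not pass (edgeR unadjusted p = 0.31). In *eef1a2* CRISPants its fold change went below 2 without replicate 3. *atp2c1.S* fell, changing by -0.95 ± 0.15 in *ap3b2* CRISPants (log2 fold change ± SE, edgeR adjusted p = 0.0029) and -0.87 ± 0.18 in *eef1a2* CRISPants (adjusted p = 0.0084). The position table places the copy named L on an S chromosome and the copy named S on an L chromosome, so which copy is which is uncertain here. Of the second Golgi pump, *atp2c2.L* did not pass (0.07 and 0.06) and *atp2c2.S* fell in *ap3b2* CRISPants, changing by -0.18 ± 0.07 (log2 fold change ± SE, edgeR adjusted p = 0.045), with -0.12 ± 0.08 in *eef1a2* CRISPants. After removal of the span trend the *ap3b2* value was 0.0027. The difference between the CRISPant groups was -0.07 ± 0.08 for that copy.

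The bicarbonate transporters of family *slc4* were divided between genes that fell and genes that did not pass. *slc4a8*, a sodium-driven chloride-bicarbonate exchanger of neurons, fell in both copies. *slc4a8.L* (chromosome 2L, 150284858 to 150374512) was measured at 33.2, 32.6, 36.01, 24.4 and 33.3 CPM in control replicates 1 to 5, 9.33, 11.4, 11.4 and 21.9 CPM in *ap3b2* CRISPant replicates 1 to 4 and 12.6, 21.7, 6.24, 15.8 and 14.6 CPM in *eef1a2* CRISPant replicates 1 to 5. No CRISPant library reached the lowest control, and *ap3b2* replicate 4 stood well above the other *ap3b2* libraries. The change was -1.24 ± 0.22 in *ap3b2* CRISPants (log2 fold change ± SE, edgeR adjusted p = 0.003) and -1.18 ± 0.25 in *eef1a2* CRISPants (adjusted p = 0.0085). *slc4a8.S* fell, changing by -0.64 and -0.53 (adjusted p = 0.0044 and 0.016), with overlap. *slc4a5.L*, which encodes the electrogenic bicarbonate cotransporter of the choroid plexus in mammals, fell, standing at 25.1 ± 4.56 CPM in controls (SD, n = 5), 13.5 ± 4.14 CPM in *ap3b2* CRISPants (SD, n = 4) and 14.3 ± 3.14 CPM in *eef1a2* CRISPants (SD, n = 5), changing by -0.90 and -0.83 (adjusted p = 0.005 and 0.0078). The summed level of 6 choroid plexus markers (10 rows) ranged from 164.1 to 188.2 CPM in controls, 146.3 to 184.9 CPM in *ap3b2* and 139.3 to 193.6 CPM in *eef1a2* CRISPants, and the part of that tissue in the change of *slc4a5.L* was not tested. *slc4a5.L* was chosen after its values were seen.

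*slc4a10*, a sodium bicarbonate transporter of neurons, did not pass: *slc4a10.S* stood at 179.7 ± 22.8 CPM in controls (SD, n = 5), 169.5 ± 11.97 CPM in *ap3b2* CRISPants (SD, n = 4) and 175.9 ± 13.8 CPM in *eef1a2* CRISPants (SD, n = 5), with log2 fold changes of -0.09 and -0.04, and *slc4a10.L* at -0.13 and -0.09. *slc4a7.L* and *slc4a7.S* fell in *ap3b2* CRISPants, changing by -0.37 ± 0.14 (log2 fold change ± SE, edgeR adjusted p = 0.046) and -0.42 ± 0.12 (log2 fold change ± SE, edgeR adjusted p = 0.016), and did not pass in *eef1a2* CRISPants, with log2 fold changes of -0.10 and -0.13. The direct difference between the CRISPant groups, -0.28 ± 0.14 and -0.30 ± 0.15, did not pass either (edgeR unadjusted p = 0.067 for each). The *slc4a4* copies did not pass. Nor did the anion exchangers *slc4a2.L*, *slc4a2.S* and *slc4a1.L*, the last being the band 3 protein of red cells. *slc4a11.S* rose, from 6.88 to 10.3 CPM in controls to 10.5 to 12.8 and 10.2 to 13.8 CPM, by 0.39 ± 0.12 in *ap3b2* CRISPants (log2 fold change ± SE, edgeR adjusted p = 0.026) and 0.43 ± 0.12 in *eef1a2* CRISPants (adjusted p = 0.016), while *slc4a11.L* was at 0.00 and -0.02.

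Sodium-proton exchangers (NHE, family *slc9*) bring sodium in and carry protons out of the cell, or set the pH of endosomes and the Golgi. *slc9a7.L*, of the trans-Golgi network, fell, standing at 52.3 ± 2.48 CPM in controls (SD, n = 5), 31.2 ± 8.75 CPM in *ap3b2* CRISPants (SD, n = 4) and 29.9 ± 8.06 CPM in *eef1a2* CRISPants (SD, n = 5), changing by -0.75 and -0.82 (adjusted p = 0.0035 and 0.0078), without overlap, whereas *slc9a7.S* did not pass (-0.11 and -0.10). *slc9a8.S*, a Golgi form, fell, changing by -0.62 and -0.79 (adjusted p = 0.0064 and 0.0093). *slc9a5.L*, a neuronal plasma membrane form, and *slc9a3.L* did not pass. *slc9b2.L* rose in *eef1a2* CRISPants by 0.36 ± 0.13 (log2 fold change ± SE, edgeR adjusted p = 0.04), with 0.25 ± 0.13 in *ap3b2* CRISPants (adjusted p = 0.15). *slc9b2.S* did not pass. *slc9a7.L* and *slc9a8.S* were chosen after their values were seen.

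Of the 29 *slc26* anion transporters 10 were tested, and 1 fell in each comparison: *slc26a9.S* in *ap3b2* CRISPants, at -0.47 ± 0.15 (log2 fold change ± SE, edgeR adjusted p = 0.023), and *slc26a10.S* in *eef1a2* CRISPants, at -0.49 ± 0.17 (log2 fold change ± SE, edgeR adjusted p = 0.042). Between the CRISPant groups these genes differed by -0.37 ± 0.21 and 0.27 ± 0.25, which did not pass. Among all genes tested 22.8% fell in *ap3b2* and 21.4% in *eef1a2* CRISPants. *slc26a5*, known in mammals as the motor protein of cochlear outer hair cells, did not pass in either copy, at 0.12 and 0.16 for *slc26a5.L* and -0.20 and -0.19 for *slc26a5.S*. The sulfate transporter *slc26a2.L* failed the filter and was measured at 1.45, 1.49, 1.39, 0.801 and 1.34 CPM in control replicates 1 to 5, 0.357, 0.639, 0.643 and 0.698 CPM in *ap3b2* CRISPant replicates 1 to 4 and 0.613, 0.857, 0.59, 0.81 and 0.358 CPM in *eef1a2* CRISPant replicates 1 to 5. The 2 highest CRISPant libraries, *eef1a2* replicates 2 and 4, lay just above control replicate 4. It was called lower in both comparisons when every gene above 1 CPM in at least 4 libraries was tested. Only control libraries exceeded 1 CPM, so it entered that fit through the group where it is high. The call in that fit is therefore no support for a fall. A fit that dropped only genes without reads kept 125 members and does not select by group. It also called *slc26a2.L* lower in both comparisons, and in *eef1a2* CRISPants *slc26a2.S* and *slc9a2.L* lower and *slc12a3l.S* higher. Under the filterByExpr filter *slc26a2.L* was called lower in *ap3b2* but not in *eef1a2* CRISPants. There *slc9a2.L* was called lower and *slc12a3l.S* higher. *slc26a2.L* had only 14 to 69 counts per library.

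The 39 members that were not tested had means of at most 1.29 CPM in controls. The largest group was *slc26* genes (19), of which *slc26a1.S* had no count in any library. The rest included *slc12a1.L*, *slc12a3.L*, *slc12a3l.L*, *slc12a3l.S*, *slc12a8.L*, the *slc9a2* copies and genes of other families. *atp2a1.L* was among them and encodes the SERCA of skeletal muscle. It was measured at 0.0842, 0.243, 0.395, 1.33 and 0.82 CPM in control replicates 1 to 5, 0.153, 0.399, 0.783 and 2.94 CPM in *ap3b2* CRISPant replicates 1 to 4 and 0.16, 0.357, 0.949, 2.03 and 1.26 CPM in *eef1a2* CRISPant replicates 1 to 5. Replicates 4 and 5 were higher than replicates 1 to 3 in controls and in *eef1a2* CRISPants, and replicate 4 was the highest of the *ap3b2* CRISPants. The summed level of 5 skeletal muscle markers was 8.77 to 15.96 CPM in controls, 11.2 to 22.0 CPM in *ap3b2* and 13.7 to 20.1 CPM in *eef1a2* CRISPants.

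The L and S copies of a gene were then compared within libraries. How reads that match both copies were counted is not given in the sources used here, so a shift between copies may in part be one of read assignment. For the 37 pairs with both copies tested, the log2 ratio of the L to the S copy was compared between groups by exact permutation tests, 74 in all, a comparison added after the data had been seen. After adjustment over the 74, 0 had a p below 0.05, and 9 pairs in each comparison had reached the smallest p that the test can give (0.016 with 4 *ap3b2* and 0.0079 with 5 *eef1a2* libraries). The smallest adjusted p was 0.056. The pairs at the smallest p in both comparisons numbered 6, among them *slc12a2*, *slc24a2*, *slc4a8*, *atp2b2* and *atp2a2*, whose ratios did not overlap between controls and CRISPants. Pairs outside the members were not tested in this way. These counts therefore cannot be set against a share over all pairs and are not read as a trait of the members. For *slc12a2* the log2 ratio was 0.09 ± 0.08 in controls (SD, n = 5), 0.77 ± 0.32 in *ap3b2* (n = 4) and 0.99 ± 0.36 in *eef1a2* CRISPants (n = 5), and for *slc24a2* it was -1.73 ± 0.11, -2.49 ± 0.27 and -2.78 ± 0.69 in the same order. When the copies were summed to 1 gene before the fit, also added after the data had been seen, 4 of 50 genes were called lower in *ap3b2* CRISPants (*atp2a3*, *atp2c1*, *slc24a3* and *slc8a1*) and 3 in *eef1a2* CRISPants (the same without *atp2c1*). Over all genes summed in this way, 499 of 13314 were called lower in *ap3b2* and 494 of 13248 in *eef1a2* CRISPants. Summed *slc12a2* then changed by -0.71 ± 0.12 and -0.70 ± 0.14, and summed *slc12a5* by -0.82 ± 0.13 and -0.83 ± 0.15 (log2 fold change ± SE, edgeR adjusted p = 0.0035 and 0.0074 for each gene in *ap3b2* and *eef1a2* CRISPants).

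**Figure D5:**
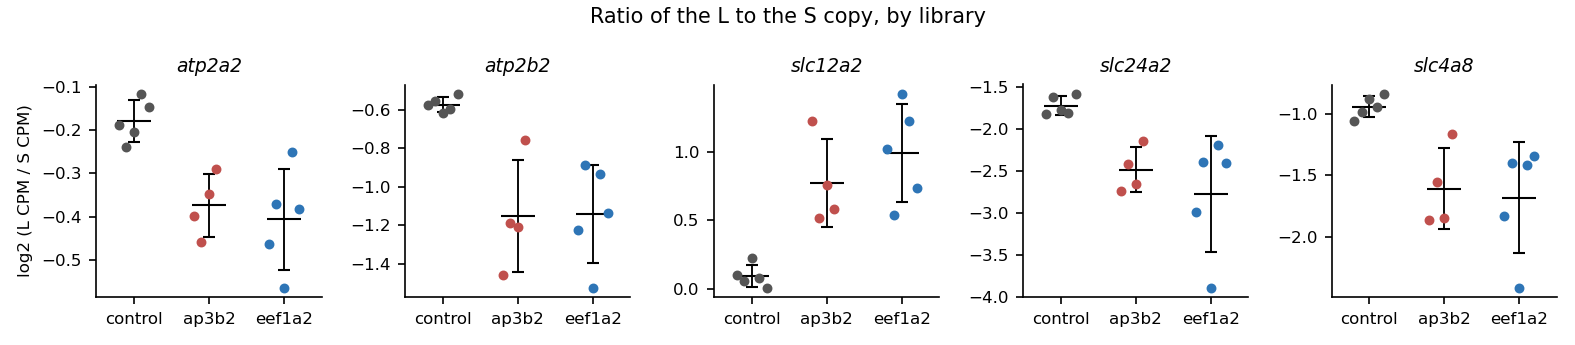
Log2 ratio of the L to the S copy (y axis, not from 0) by library for the 3 groups (x axis), with the mean (bar) and SD (whiskers), for 5 of the pairs at the smallest p in both comparisons. The ratio is higher in CRISPants for *slc12a2* and lower for *slc24a2*, *slc4a8*, *atp2b2* and *atp2a2*, and the adjusted p over 74 tests was 0.056 for each.

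The *ap3b2* and *eef1a2* CRISPants were also compared directly. Of 87 members 0 were called in either direction, against 0 of 20584 genes, 0 passed the false discovery rate alone in edgeR, and 0 had an unadjusted p below 0.05, against 0.870% of all genes. DESeq2 called 0 members as well. Differences ranged from -0.47 (*atp2c1.L*) to 0.39 (*slc12a4.S*) on the log2 scale, with a median SE of 0.16. For the chloride genes the differences were 0.13 ± 0.26 for *slc12a2.S* and 0.04 ± 0.18 for *slc12a5.L*.

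Libraries within a group differed in the level of the 12 called members, which were chosen by these values. These members lay at a median of 0.18 to -0.34 from the control mean on the log2 scale in control libraries, with replicate 4 lowest. They lay at -1.69, -1.37, -1.27 and -0.64 in *ap3b2* replicates 1 to 4 and at -1.38, -0.56, -2.27, -1.11 and -1.27 in *eef1a2* replicates 1 to 5. Over all 21327 genes above 1 CPM after TMM scaling in at least 4 libraries, the same medians stayed between 0.00 and 0.05. TMM scaling levels the bulk of genes between libraries and so holds these medians near 0. They are therefore no test of the 12 members.

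Genes that regulate these transporters were read from a separate list. The WNK kinases act through the kinases SPAK (*stk39*) and OSR1 (*oxsr1*). SPAK and OSR1 phosphorylate cation-chloride cotransporters, which activates NKCC1 and inhibits the KCC exporters. Of 12 such genes tested, 8 fell and 2 rose in *ap3b2* CRISPants and 6 fell in *eef1a2* CRISPants, against 22.8% of all genes that fell and 20.0% that rose in *ap3b2* and 21.4% and 18.8% in *eef1a2* CRISPants. *wnk3.L* fell, changing by -1.24 ± 0.23 in *ap3b2* CRISPants (log2 fold change ± SE, edgeR adjusted p = 0.0033) and -0.90 ± 0.32 in *eef1a2* CRISPants (adjusted p = 0.043). Its levels ranged over 18.9 to 42.9 CPM in controls, 10.96 to 18.8 CPM in *ap3b2* CRISPants and 7.42 to 31.7 CPM in *eef1a2* CRISPants. *stk39.L* fell, changing by -1.13 ± 0.25 in *ap3b2* CRISPants (log2 fold change ± SE, edgeR adjusted p = 0.0056) and -0.94 ± 0.19 in *eef1a2* CRISPants (adjusted p = 0.008). The 2 that rose were the *oxsr1* copies, by 0.23 and 0.17 (adjusted p = 0.049 and 0.041), with 0.07 and 0.04 in *eef1a2* CRISPants, where they did not pass.

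Of 14 tested partners of the sodium pump (*fxyd* and *nkain* genes), 3 fell and 5 rose in *ap3b2* and 3 fell and 4 rose in *eef1a2* CRISPants. Among all genes tested, 22.8% fell and 20.0% rose in *ap3b2* and 21.4% fell and 18.8% rose in *eef1a2* CRISPants. *fxyd7.S*, a brain modulator of the pump in mammals, rose by 0.37 and 0.29 and *nkain4.S* by 0.51 and 0.42, while *nkain1.S* fell, changing by -1.04 and -1.04 and *nkain1.L* by -0.82 and -0.94 (edgeR adjusted p between 0.0029 and 0.01). The *fxyd6* copies moved apart, at -0.23 and -0.31 for *fxyd6.L* and 0.31 and 0.27 for *fxyd6.S*. *chp1.L*, a partner of sodium-proton exchangers, rose by 0.38 and 0.32 and *nherf2.L*, a scaffold of sodium-proton exchangers, fell, changing by -0.95 and -1.01. The PMCA partners basigin and neuroplastin rose in 3 of 4 genes in *ap3b2* CRISPants (0.16 to 0.20 on the log2 scale) and in 1 of 4 in *eef1a2* CRISPants (*bsg.S*, 0.26). Of the carbonic anhydrases, 2 of 13 fell and 1 rose in *ap3b2* and 3 of 12 fell and 1 rose in *eef1a2* CRISPants. *clcn4*, *clcn3* and *clcn6* of the ClC family gave 4 falls among 9 tested chloride channel and exchanger genes in *ap3b2* CRISPants, and 3 fell and *clcn2.L* rose in *eef1a2* CRISPants. Over all 62 related genes tested in *ap3b2* CRISPants 18 fell (29.0%) and 13 rose (21.0%), with a median log2 fold change of 0.05, and over 61 in *eef1a2* CRISPants 16 fell (26.2%) and 9 rose (14.8%), with a median of 0.07. These shares lie near those of all genes given above. The fold change passed 2 for *wnk3.L*, *stk39.L* and *nkain1.S* in *ap3b2* and for *nkain1.S* and *nherf2.L* in *eef1a2* CRISPants. These calls made up 4.84% and 3.28% of the related genes tested, not above the 5.11% and 5.24% of all genes called lower.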

How the data were processed

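Per the labels and the study's methods, the authors used STAR for alignment (*X. laevis* assembly v10.1, after adapter trimming) and featureCounts for reverse-stranded pairs, and deposited unnormalized counts for 26807 genes. A deposited table of log2 CPM, not used for tests beyond 1 alternative, holds 21328 genes, whose values equal edgeR's TMM-scaled values with a prior count of 2 to within 4.99e-09, where CPM exceeded 1 in at least 4 libraries. Every deposited column belonged to a labelled sample. No reads were analysed, and replicates are labelled as separate pools of 6 brains.

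For each comparison the 2 groups were fitted alone in edgeR 4.0.16 (R 4.3.3): the study's filter dropped genes whose CPM was at most 1 in 4 libraries or more, counts were TMM scaled and tested with the quasi-likelihood F test, and p-values were adjusted by Benjamini-Hochberg over all genes tested. A call needed a false discovery rate below 0.05 and a fold change above 2. Standard errors were derived from the F statistic. CPM values of single genes were TMM scaled over all 14 libraries, and summed marker levels were CPM without TMM. Ratios were tested with exact permutation tests (scipy 1.17.1). SDs cover counting error and differences between pools. The depth was 36563581 to 46745977 pairs per library.

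Named were both copies of *slc12a2* and *slc12a5*, every called member, the member with the highest mean CPM of each role group, the homeologs of these, and the 5 largest rises in each comparison with controls. Any other member or related gene described was chosen after its values were seen. The members and lists were chosen with earlier results of these data known. The rule was read as families *slc4*, *slc8* and so on; its letters also match 39 genes of families *slc40* to *slc49*, which were left out. Positions came from RefSeq's gene table of v10.1, in which 95 of 126 members were found. Alternatives were DESeq2 1.42.0, a likelihood ratio test, library size and upper-quartile scaling, 3 other filters, 1 fit of all libraries, a replicate block, removal of the trend with gene span, other thresholds and left-out libraries. The scripts were tested on simulated data. Sequences were not used here, and some members are counted but not reported singly.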

Additional observations from a re-analysis of the deposited data

Results flagged for a closer look

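Values that stood apart within their group of 4 or 5 libraries, with a gap to the nearest library larger than Dixon's 95% limit, were found in 11 of 171 groups of member values and ratios examined. Chance gives about 1 in 20 groups. In *ap3b2* CRISPants replicate 4 stood apart for 4 genes: *slc12a2.L* at 17.2 CPM against 13.8 to 14.3 CPM in the others, *slc4a8.L* at 21.9 CPM against 9.33 to 11.4 CPM, *slc4a11.S* at 12.8 CPM against 10.5 to 10.6 CPM, and *slc4a10.L* at 112.9 CPM against 124.0 to 125.1 CPM. Control replicate 4 stood apart for 2 genes: *slc12a2.S* at 14.5 CPM against 19.0 to 20.0 CPM, and *atp2a3.L* at 11.2 CPM against 14.6 to 15.6 CPM. For *slc12a2.S*, *slc12a2.L*, *atp2a3.L*, *slc4a8.L* and, as given below, *slc24a3.S* the library that stood apart lay toward the other group. Control replicate 5 was high for *atp2b2.L* (120.8 CPM against 107.4 to 109.6 CPM) and control replicate 2 low for *slc12a9.L* (16.3 CPM against 17.7 to 18.2 CPM). In *eef1a2* CRISPants, replicate 2 was high for *slc24a3.S* (6.43 CPM against 1.77 to 2.91 CPM) and *slc9b2.S* (12.8 CPM against 9.77 to 10.2 CPM), and replicate 5 was low for *slc9a5.L* (20.7 CPM against 24.6 to 25.3 CPM).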

How the results depend on the processing

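Counts of members called lower, 12 in each comparison with controls, stayed within 1.5 times under DESeq2 (12 and 12 in *ap3b2* and *eef1a2* CRISPants), a likelihood ratio test, other scalings, other filters, a fit of all libraries, a false discovery rate below 0.01 and removal of the trend with span (8 and 9, of which 3 genes without a known span were not corrected). They became 37 and 33 with no fold limit, 23 and 5 with replicates 1 to 3 alone, 7 in *eef1a2* CRISPants with replicates 4 and 5 alone, and 4 and 3 with copies summed (the last 2 settings were chosen once the data were seen). Leaving out each library gave 8 (without *ap3b2* replicate 1) to 17 (without *ap3b2* replicate 4) and 7 (without *eef1a2* replicate 3) to 16 (without *eef1a2* replicate 2). Over all genes the same fits called 724 to 1791 and 706 to 1716 lower. Calls over all genes also moved with removal of the span trend, replicates 1 to 3, replicates 4 and 5 and summed copies, as given above. Members called higher, 0 in each, became 6 and 5 with no fold limit, 1 in *eef1a2* CRISPants under filterByExpr and with every gene that had a count (*slc12a3l.S*), and 0 to 1 in *ap3b2* CRISPants without a library (*atp1b2.L*). With *slc40* to *slc49* added, also after seeing the data, 17 and 15 were called lower. Between CRISPant groups 0 were called under each alternative.

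The change of the *slc12a5* to *slc12a2* ratio, -0.12 and -0.13, ranged from -0.15 to -0.10 and from -0.17 to -0.091 over left-out libraries, passing in *eef1a2* CRISPants without their replicate 5 (-0.17, exact permutation test, adjusted p = 0.048). It was -0.37 and -0.52 with L copies alone and 0.24 and 0.43 with S copies alone, and between CRISPant groups 0.006 became -0.19 with S copies alone and -0.03 to 0.05 over left-out libraries.

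With a replicate block the members called lower stayed 12 and 12, and the ratio changed by -0.13 in *ap3b2* CRISPants. Replicate numbers did not pair the samples throughout. Correlations of same-numbered deviations with controls ranged from -0.06 to 0.31 (*ap3b2*) and from -0.22 to 0.36 (*eef1a2*). Between the CRISPant groups they ranged from -0.06 to 0.63. The own number correlated best for *ap3b2* replicate 3 (0.306) and *eef1a2* replicate 1 (0.285) with controls, and for replicate 4 between the CRISPant groups. Whether replicates shared a batch was not tested. Of values of single members under an alternative, 3451 kept their side of the threshold, and 160 lost and 24 gained an adjusted p below 0.05. A further 5 changed sign with an adjusted p below 0.05 in the main fit or the alternative. Changes of sign with neither p below 0.05 are counted among the 3451. With span trend and replicate block together, *atp2b4.S* became 0.20 and 0.22, *slc4a10.S* 0.16 in *eef1a2* and *atp2c2.S* 0.024 in *ap3b2* CRISPants (0.0027 with the span trend alone). The causes were not tested. Counting error is largest for the members below 1 CPM, or 36.6 to 46.7 counts before TMM scaling.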
